A study of Homo sapiens with 6 samples.

Results

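The genes described are 8 sensors of foreign compounds and of vitamin D, with their partners, measured by RNA-seq in hepatocellular carcinoma (HCC) cells with and without knockdown of the RNA helicase MTR4. They were taken by symbol from a written list: NR1I2 (the pregnane X receptor, PXR), NR1I3 (the constitutive androstane receptor, CAR), AHR (the aryl hydrocarbon receptor), AHRR, TIPARP, RXRA, VDR (the vitamin D receptor) and POR. All 8 matched 1 counted gene each among 60675 counted genes, and all 8 were among the 18075 genes that passed a filter on low counts. The samples were 3 control and 3 MTR4 KD libraries of total RNA from PLC/PRF5, a human HCC line, and both groups grew in DMEM with fetal bovine serum. By the study's text, the knockdown was a doxycycline-inducible hairpin brought in by lentivirus with puromycin selection, and the RNA-seq set cells before doxycycline against cells after it. The sample labels name neither drug nor the hairpin, and no library of scramble-hairpin cells given doxycycline was analysed here, so an effect of doxycycline and one of the knockdown cannot be told apart in these libraries. Nothing in the labels says that the 3 libraries of a group came from separate cultures, so the p-values measure the spread between these libraries, which may be technical.

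PXR and CAR are nuclear receptors that bind drugs, steroids and bile acids, pair with the retinoid X receptor RXRA and raise the transcription of cytochrome P450, transferase and transporter genes in liver. AHR waits in the cytoplasm with chaperones, binds planar aromatic compounds, pairs with ARNT in the nucleus and raises CYP1A1 together with its own inhibitors AHRR and TIPARP. VDR also pairs with RXRA and raises CYP24A1, the enzyme that breaks down active vitamin D. POR, the P450 oxidoreductase, passes electrons from NADPH to the microsomal P450 enzymes that many of these receptors control. The comparison addressed whether the receptors differ between control and MTR4 KD cells, in which a group of detoxification genes is higher.

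Each library held 60686786 to 72708682 reads assigned to genes, and the 8 genes had 28 to 14601 reads each per library. MTR4 itself (gene MTREX, ENSG00000039123) was at 72.2, 87.4 and 74.4 CPM (read counts scaled to library size with edgeR's TMM factors) in control and at 44.6, 48.8 and 44.1 in MTR4 KD, a log2 fold change of −0.77 ± 0.0897 (SE, n = 3 against 3; edgeR quasi-likelihood, Benjamini-Hochberg adjusted p = 0.00641). The libraries also fell into 2 alignment classes that cross the groups. Control 1, control 3 and MTR4 KD 3 had 34.7% to 37.5% of reads aligned to more than 1 place, and control 2, MTR4 KD 1 and MTR4 KD 2 had 14.8% to 18.2%. No label names this division as a batch, but libraries of 1 group differed far more across it (chi-square per degree of freedom 84.1 to 93.5) than within it (4.61 and 7.96). Values are therefore given from a fit on condition alone, which is the main test, and from a fit with the alignment class as a covariate.

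Markers of the hepatocyte lineage were present in every library, with a summed level over 10 genes of 24169 to 25629 CPM in control and 24270 to 26084 CPM in MTR4 KD. Markers of blood, endothelial and stromal cells summed to 5.30 to 7.76 CPM in control and 3.58 to 8.19 CPM in MTR4 KD over 7 matched genes, of which 5 had a median count of 10 or less. The summed hepatocyte level overlapped between the groups. Of its 10 genes, 3 (ALB, APOA1 and TTR) passed the adjusted threshold as higher in MTR4 KD, against 3.60% of all genes in either direction. The part of these 3 genes in the results below was not tested. In bulk RNA, fewer cells of a type and less RNA per cell cannot be told apart.

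None of the 8 genes differed between the groups at an adjusted p under 0.05 in edgeR's fit on condition alone, against 3.60% of all genes tested. At an unadjusted p under 0.05 the count was 6 of 8, against 18.8% of all genes; limma-voom called 0 and DESeq2 called 2 (NR1I2 and TIPARP, against 8.36% of all genes it gave an adjusted p). With the alignment class in the edgeR model, 4 of 8 were called, against 20.2% of all genes. NR1I2 and RXRA were higher (9.43% of all genes were called higher) and AHR and TIPARP were lower (10.8% were called lower). The 3 libraries of the groups did not overlap for 6 of 8 genes, against 24.7% of all genes: AHR, AHRR and TIPARP lay below control in all 3 MTR4 KD libraries, and RXRA, NR1I2 and VDR lay above it. The median log2 fold change of the 8 was −0.02, with a range of −0.47 to 0.95, beside a median of 0.01 over all genes tested.

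**Figure D1:**
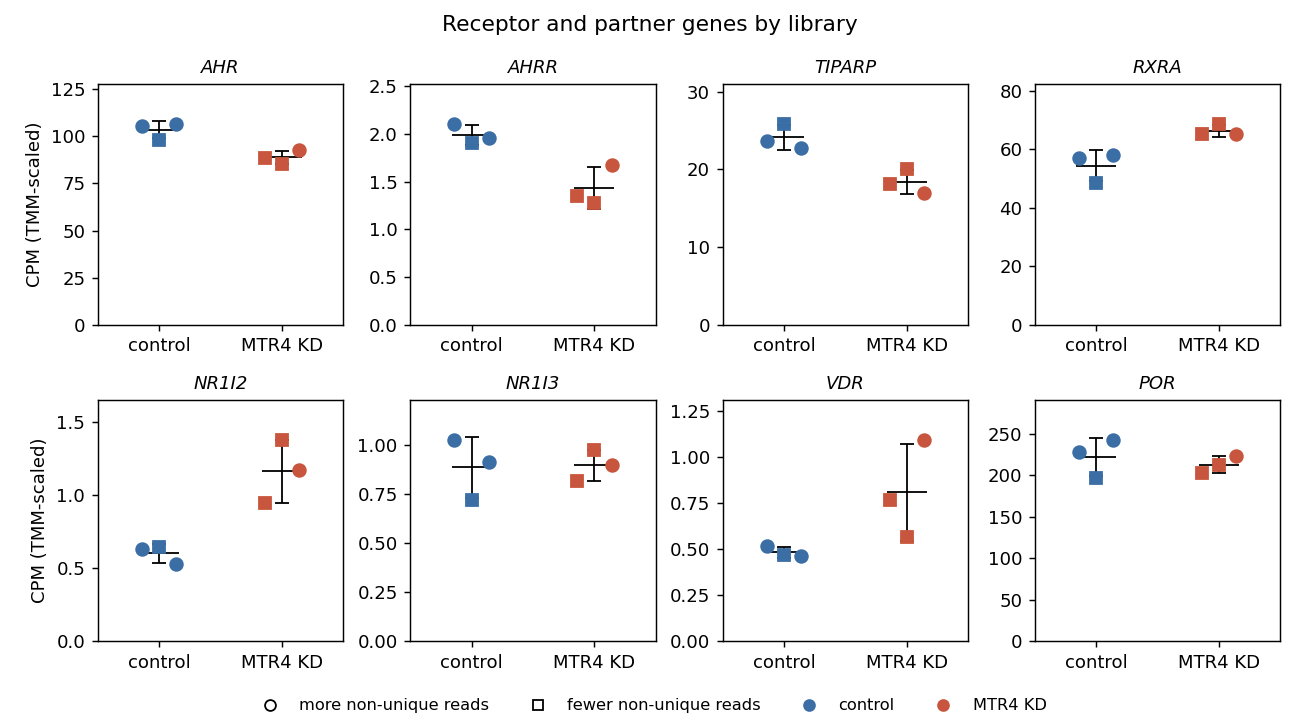
Scaled level (CPM, linear axis from 0) of the 8 genes in each library, with the group mean and SD (n = 3). Circles are libraries with more reads aligned to several places and squares those with fewer; AHR, AHRR and TIPARP are lower and RXRA, NR1I2 and VDR higher in all 3 MTR4 KD libraries, while NR1I3 and POR overlap.

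The proximal promoters of AHRR, TIPARP and CYP1A1 are shown because the core that the AHR and ARNT pair binds, GCGTG or, read from the opposite strand, CACGC, can be found in them. Each line gives the 250 bases before the first start listed for the gene, 5′ to 3′ on its strand, from RefSeq (GRCh38.p14), with the core in capitals.
AHRR: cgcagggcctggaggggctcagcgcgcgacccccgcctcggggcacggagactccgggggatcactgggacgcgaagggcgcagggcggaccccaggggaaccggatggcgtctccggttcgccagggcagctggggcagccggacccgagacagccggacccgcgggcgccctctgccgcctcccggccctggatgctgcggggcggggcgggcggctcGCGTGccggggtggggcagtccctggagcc
TIPARP: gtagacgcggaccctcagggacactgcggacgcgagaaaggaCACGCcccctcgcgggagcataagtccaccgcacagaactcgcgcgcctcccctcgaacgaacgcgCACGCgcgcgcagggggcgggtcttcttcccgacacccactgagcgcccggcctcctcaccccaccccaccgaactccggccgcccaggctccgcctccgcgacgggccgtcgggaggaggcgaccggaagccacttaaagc
CYP1A1: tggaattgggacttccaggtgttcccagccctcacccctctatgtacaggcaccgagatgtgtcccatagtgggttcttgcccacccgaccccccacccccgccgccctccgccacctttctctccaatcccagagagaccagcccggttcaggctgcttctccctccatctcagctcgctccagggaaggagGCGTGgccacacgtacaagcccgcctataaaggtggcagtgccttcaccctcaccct

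The AHRR window lies at chr5:321464-321713 on the plus strand, with the core starting 30 bases before the start. That of TIPARP lies at chr3:156674340-156674589 on the plus strand, with cores 208 and 142 bases before the start. RefSeq lists further starts for both genes: the window of the second AHRR start held 2 cores, 247 and 42 bases before it, and those of the other 2 TIPARP starts held 0. The CYP1A1 window lies at chr15:74725529-74725778 on the minus strand, with 1 core 57 bases before the start. RefSeq windows were found for 6 of the 8 genes, and those of AHR, RXRA, NR1I2 and NR1I3 held no such letters. The core is short: 32.2% of 35116 windows of the same length and 36.2% of 27305 genes held at least 1, against 2 of the 6 genes here and 1 of the 9 raised detoxification genes (CYP1A1). GCGTG is also a form of the core read by hypoxia-inducible factors, and a match describes letters only.

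AHR (ENSG00000106546, chromosome 7, 17298652 to 17346147, GRCh38) was at 106, 98.2 and 107 CPM in control and at 88.6, 85.5 and 92.5 CPM in MTR4 KD. Every MTR4 KD library was below every control library, and the spread within a group was small. The mean went from 103 ± 4.58 to 88.9 ± 3.52 CPM (SD, n = 3), a log2 fold change of −0.22 ± 0.0637 (SE; 95% interval −0.37 to −0.07; edgeR adjusted p = 0.124). With the alignment class in the model AHR was lower at −0.19 (edgeR adjusted p = 0.00596), and the difference was −0.20 within the class with more multiply aligned reads and −0.17 within the other. Without MTR4 KD 3 the call in that model was lost (−0.16, edgeR adjusted p = 0.0624). An overlapping gene on the same strand, not among the counted genes, shares 29.5% of the exon bases of AHR. The share of AHR reads that this affects is not known.

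TIPARP (ENSG00000163659, chromosome 3, 156674590 to 156706770), an ADP-ribosyltransferase that AHR induces and that in turn limits AHR, was at 23.7, 25.9 and 22.8 CPM in control and at 18.2, 20.0 and 17.0 CPM in MTR4 KD. The groups did not overlap. The log2 fold change was −0.39 ± 0.0915 (95% interval −0.61 to −0.18; edgeR adjusted p = 0.0719) and, with the alignment class, −0.44 (edgeR adjusted p = 0.000316). Within the classes it was −0.45 and −0.44, and the call with the class in the model held without any 1 of the 6 libraries. TIPARP was also called lower by DESeq2 on condition alone (adjusted p = 0.00797).

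AHRR (ENSG00000063438, chromosome 5, 321714 to 438285), the repressor that competes with AHR for ARNT, was read 83 to 138 times per library. Its levels were 2.11, 1.91 and 1.96 CPM in control and 1.35, 1.27 and 1.68 CPM in MTR4 KD. The groups did not overlap, and MTR4 KD 3 was the closest to control. The log2 fold change of −0.47 ± 0.172 did not pass (95% interval −0.88 to −0.07; edgeR adjusted p = 0.203), nor did that with the alignment class (−0.41, edgeR adjusted p = 0.131). Within the classes the difference was −0.27 and −0.53. In the annotation used here 58.7% of the exon bases of AHRR are shared with an overlapping gene on the same strand. That gene is not among the counted genes, so the share of AHRR reads affected is not known.

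The cytoplasmic complex and the nuclear partner of AHR were tested through 6 genes, and none was called (median log2 fold change −0.08). Over all genes tested, 3.60% were called on condition alone and 20.2% with the alignment class. ARNT, the obligate partner, had a log2 fold change of 0.11 (edgeR adjusted p = 0.498). With the alignment class, ARNT2 (−1.68 in that fit and −1.69 on condition alone) and the chaperone gene HSP90AB1 (−0.18 and −0.10) were called lower. The ARNT2 value rested on 1 library, since it was at 3.26 CPM in control 2 and at 0.27 to 0.54 CPM in the other 5.

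AHR targets did not move one way. Of 7 tested, 1 was higher (CYP1A1) and 2 were lower (NEDD9 and EREG) in MTR4 KD, with a median of −0.05. Over all genes tested, 3.60% were called in either direction. The counts of AHR targets were the same with the alignment class, where 20.2% of all genes were called. CYP1A1 is also among the 9 raised detoxification genes, which were chosen on these same libraries, so its direction is not independent evidence. CYP1A1, the aryl hydrocarbon hydroxylase, was at 30.9, 26.1 and 28.0 CPM in control and at 63.9, 64.0 and 51.2 CPM in MTR4 KD. It rose in all 3 MTR4 KD libraries, by a log2 fold change of 1.08 ± 0.109 (edgeR adjusted p = 0.00340), and by 0.80 and 1.29 within the classes. NEDD9, a scaffold protein of cell adhesion, fell from a mean of 45.3 to 20.7 CPM (−1.13, edgeR adjusted p = 0.000588). EREG, a ligand of the epidermal growth factor receptor, went from 107 to 65.4 CPM (−0.71, edgeR adjusted p = 0.00921), and its call was lost without control 1, control 3, MTR4 KD 1 or MTR4 KD 2, at adjusted p = 0.0512 to 0.0545. CYP1B1 (0.30, edgeR adjusted p = 0.712) and NQO1 (−0.05, edgeR adjusted p = 0.678) did not pass, and CYP1A2 had 2 to 6 reads per library and was not tested. In all 3 MTR4 KD libraries AHR, AHRR and TIPARP were below the lowest control value and CYP1A1 was above the highest. The groups did not overlap for 24.7% of all genes, and edgeR on condition alone called none of AHR, AHRR and TIPARP.

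RXRA (ENSG00000186350, chromosome 9, 134326455 to 134440585), the shared partner of PXR, CAR and VDR, was at 56.9, 48.3 and 58.1 CPM in control and at 65.2, 68.7 and 65.1 CPM in MTR4 KD. The groups did not overlap, and control 2 was the lowest of all. Its log2 fold change was 0.29 ± 0.0823 (95% interval 0.09 to 0.48; edgeR adjusted p = 0.123) on condition alone and 0.32 with the alignment class (edgeR adjusted p = 0.00249). Within the classes the difference was 0.18 and 0.47. Without control 2 it went to 0.18 in the fit with the class and the call was lost (edgeR adjusted p = 0.0759).

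NR1I2, encoding PXR (ENSG00000144852, chromosome 3, 119782101 to 119818487), was read 39, 47 and 32 times in control and 58, 92 and 72 times in MTR4 KD. In CPM that was 0.632, 0.649 and 0.531 against 0.945, 1.38 and 1.17. No library overlapped, but the level was low. The log2 fold change was 0.95 ± 0.234 (95% interval 0.40 to 1.50; edgeR adjusted p = 0.0847; DESeq2 adjusted p = 0.0311), and with the alignment class it was 0.93 (edgeR adjusted p = 0.0299). Within the classes it was 0.98 and 0.79. In the fit with the class the call held without MTR4 KD 1 and was lost without control 1, control 2, control 3, MTR4 KD 2 or MTR4 KD 3, at adjusted p = 0.0626 to 0.180.

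NR1I3, encoding CAR (ENSG00000143257, chromosome 1, 161229669 to 161238203), had 50 to 65 reads per library and was at 1.02, 0.718 and 0.912 CPM in control and at 0.815, 0.973 and 0.897 CPM in MTR4 KD. The libraries of the groups were interleaved. The log2 fold change was 0.02 ± 0.225 (95% interval −0.51 to 0.55, edgeR adjusted p = 0.971) and 0.10 with the alignment class (edgeR adjusted p = 0.834). The interval leaves room for a difference of NR1I3 in either direction up to those bounds. TOMM40L on the opposite strand covers 20.4% of its exon bases at a mean of 897 reads, and whether the counting used strand was not given in the sources used here, so the 2 genes' reads may be mixed.

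Partners and co-regulators of PXR and CAR were tested through 11 of 12 listed genes, and none was called in the fit on condition alone (median 0.09). The shares of all genes called were 3.60% in that fit and 20.2% with the alignment class. HNF4A, the liver factor that keeps both receptors expressed, had a log2 fold change of 0.03 (edgeR adjusted p = 0.837). With the alignment class, RXRB (0.26, edgeR adjusted p = 0.00266) and the glucocorticoid receptor NR3C1 (0.18, edgeR adjusted p = 0.00963) were higher, and NR0B2, the small heterodimer partner that represses nuclear receptors, was lower (−0.37, edgeR adjusted p = 0.0306). On condition alone their log2 fold changes were 0.18 for RXRB, 0.25 for NR3C1 and −0.52 for NR0B2, with edgeR adjusted p = 0.189 to 0.331.

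**Figure D2:**
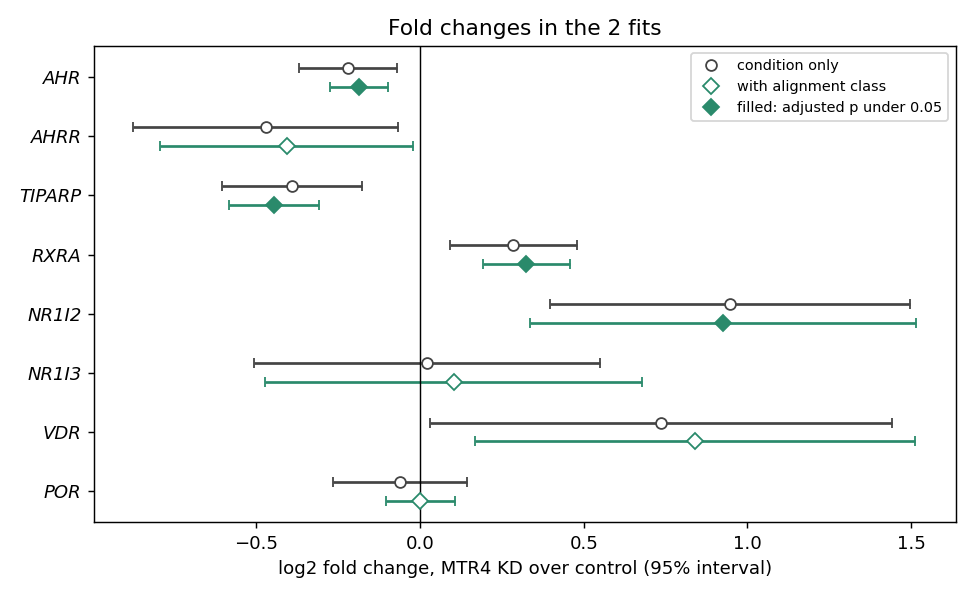
Log2 fold change of MTR4 KD over control with its 95% interval for the 8 genes (n = 3 against 3), from the fit on condition alone (circles) and with the alignment class as a covariate (diamonds, filled where the adjusted p is under 0.05). AHR, TIPARP, RXRA and NR1I2 are filled in the second fit, none in the first, and the intervals of NR1I3 and POR span 0 in both.

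Target genes of PXR and CAR were tested for 14 of 17 listed genes. In MTR4 KD 3 were higher (GSTA1, GSTA2 and SULT2A1) and 1 was lower (UGT1A1), against 3.60% of all genes called in either direction. The median log2 fold change of the 14 was 0.41. GSTA1, a glutathione transferase, was at a mean of 10.3 ± 1.28 CPM in control and 43.9 ± 4.47 CPM in MTR4 KD (2.09, edgeR adjusted p = 0.000505). Its close paralog GSTA2 was at 5.59 and 18.1 CPM (1.70, edgeR adjusted p = 0.000532), and reads of the pair may be split between them. SULT2A1, the sulfotransferase of bile acids and steroids, was at 1.47 and 5.82 CPM (1.99, edgeR adjusted p = 0.000849). These 3 are also among the 9 raised detoxification genes, which were chosen on these same libraries. Neither their direction nor the median of 0.41, which includes them, is therefore independent evidence.

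The P450 genes most used as readouts of PXR and CAR were near the limit of detection. CYP3A4 had 6 to 26 reads per library (1.08, edgeR adjusted p = 0.283). CYP2B6, the classical CAR target, had 11, 10 and 9 reads in control and 2, 5 and 3 in MTR4 KD and was not tested. CYP3A5 was better read, at 155 to 266 reads per library, and did not pass (0.30, edgeR adjusted p = 0.402). CYP3A7, the fetal form, had 8 to 11 reads in control and 23 to 44 in MTR4 KD. Its log2 fold change was 1.71 (edgeR adjusted p = 0.0597, DESeq2 adjusted p = 0.0181). It was called by edgeR with the alignment class (1.76, edgeR adjusted p = 0.0161). UGT1A1, which conjugates bilirubin, fell from a mean of 78.2 to 38.6 CPM (−1.02, edgeR adjusted p = 0.000625), and it shares exons with the other UGT1A genes. ALAS1, the first enzyme of heme synthesis, had −0.19 (edgeR adjusted p = 0.166) and was lower with the alignment class (−0.16, edgeR adjusted p = 0.0149).

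VDR (ENSG00000111424, chromosome 12, 47841537 to 47904994) was read 32, 34 and 28 times in control and 47, 38 and 67 times in MTR4 KD. Its levels were 0.519, 0.470 and 0.464 CPM in control and 0.766, 0.569 and 1.09 CPM in MTR4 KD. The groups did not overlap, and MTR4 KD 3 was the highest. The log2 fold change of 0.74 ± 0.301 did not pass on condition alone (95% interval 0.03 to 1.44; edgeR adjusted p = 0.250) or with the alignment class (0.84, edgeR adjusted p = 0.0764), and the values within the classes were 1.11 and 0.47.

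Genes of vitamin D transport and turnover were tested for 9 of 13 listed, with 1 higher and 1 lower, against 3.60% of all genes called. CYP24A1, the vitamin D 24-hydroxylase that VDR induces, was at 30.5, 31.1 and 35.6 CPM in control and at 13.8, 13.8 and 15.0 CPM in MTR4 KD. It fell in all 3 MTR4 KD libraries by 1.19 on the log2 scale (edgeR adjusted p = 0.000943), while the level of VDR in those libraries was above control. GC, the vitamin D binding protein of plasma, rose from a mean of 10.5 to 25.5 CPM (1.28, edgeR adjusted p = 0.000849). CYP27B1, which makes active vitamin D, had −0.06 (edgeR adjusted p = 0.913). LRP2 (−0.56, and −0.33 on condition alone) and CD14 (−1.43 and −1.34) were called lower by edgeR with the alignment class but not on condition alone. DESeq2 on condition alone called CD14 (adjusted p = 0.00837) but not LRP2 (adjusted p = 0.613). LRP2 was at 12.5 CPM in control 2 and at 4.93 to 7.74 CPM in the other 5 libraries.

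POR (ENSG00000127948, chromosome 7, 75915155 to 75986855) was the most abundant of the 8, at 228, 197 and 242 CPM in control and 203, 213 and 223 CPM in MTR4 KD. The libraries of the groups overlapped. The log2 fold change was −0.06 ± 0.0869 (95% interval −0.27 to 0.14; edgeR adjusted p = 0.759) and 0.00 with the alignment class (95% interval −0.10 to 0.11; edgeR adjusted p = 0.990). The interval of the second fit leaves room for a change of POR in either direction up to those bounds.

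Other carriers and acceptors of P450 electrons were tested through 11 genes, and 1 was called, against 3.60% of all genes. CYB5B, the outer mitochondrial cytochrome b5, went from 507, 474 and 510 CPM to 385, 361 and 401 CPM (−0.38, edgeR adjusted p = 0.0260), and this call was lost without control 1, control 3, MTR4 KD 1 or MTR4 KD 2. CYB5A, the microsomal form, had 0.19 (edgeR adjusted p = 0.437). With the alignment class, heme oxygenase HMOX1 was higher (0.50, edgeR adjusted p = 9.78e-05), against 0.41 on condition alone (edgeR adjusted p = 0.116, DESeq2 adjusted p = 0.0286). CYB5R3, the cytochrome b5 reductase, had −0.46 on condition alone (edgeR adjusted p = 0.335), or −0.68 without control 2 (edgeR adjusted p = 0.0680), and was called lower with the class at the smaller −0.23 (edgeR adjusted p = 0.00622).

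**Figure D3:**
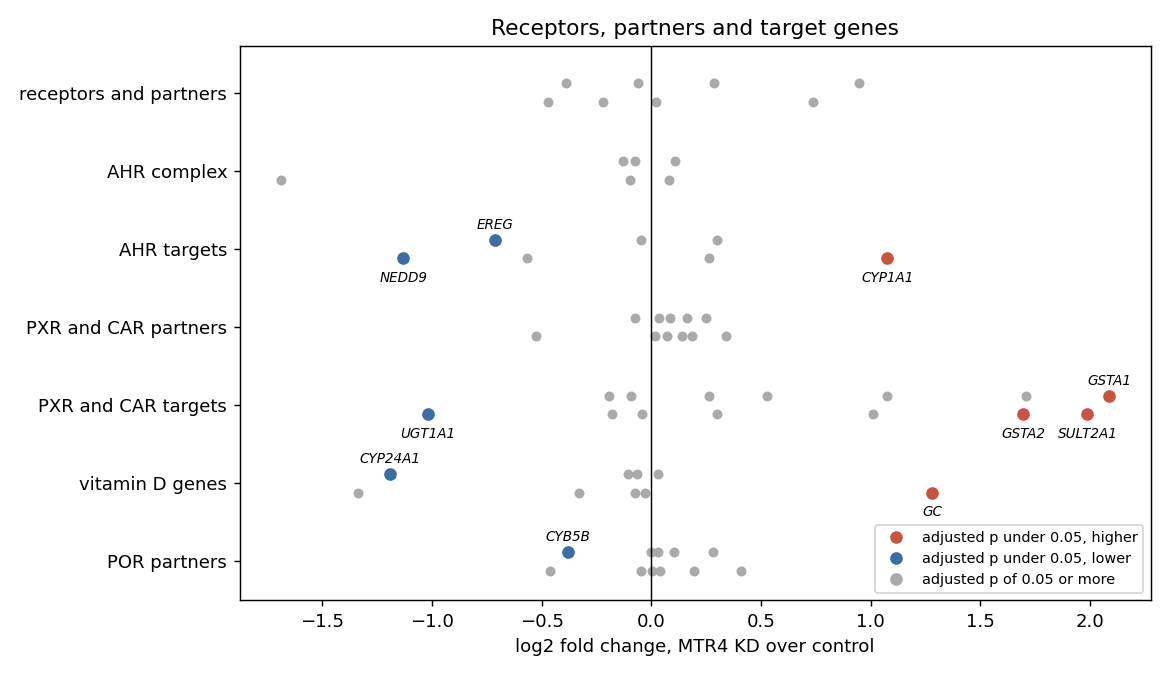
Log2 fold change of MTR4 KD over control in the fit on condition alone, 1 point per tested gene, for the 8 receptors and partners and for the lists of their complexes, targets and partners. Genes with an adjusted p under 0.05 are colored and named; there is none among the 8, and the named targets lie on both sides of 0 (CYP1A1 at 1.08 and NEDD9 at −1.13, GC at 1.28 and CYP24A1 at −1.19).

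Levels were compared between genes per kilobase of annotated exon. The length was the union of all annotated exons (12077 bases for RXRA and 4800 for TIPARP), from another annotation than the counting. It need not be the length expressed here, so the order, overlaps and percentiles below depend on it. In control, POR was the highest at 35.7 ± 3.69 CPM per kb (SD, n = 3), followed by AHR at 12.9 ± 0.569, TIPARP at 5.02 ± 0.328 and RXRA at 4.51 ± 0.441 CPM per kb. The other 4 were far lower: NR1I3 at 0.272 ± 0.0473, AHRR at 0.210 ± 0.0111, NR1I2 at 0.112 ± 0.0119 and VDR at 0.0854 ± 0.00531 CPM per kb. Neighbors in this order did not overlap between libraries, except TIPARP with RXRA and NR1I3 with AHRR. By the mean level per length over all 6 libraries of both groups, POR stood at percentile 93.1 and AHR at percentile 79.0 of all genes tested, RXRA and TIPARP at 61.1 and 58.7, and the other 4 at 8.93 to 17.7.

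By this measure the order in MTR4 KD changed in the middle and at the low end. RXRA (5.49 ± 0.172 CPM per kb) stood above TIPARP (3.83 ± 0.322 CPM per kb) with no overlap of libraries. In plain CPM, RXRA was above TIPARP in control as well, at means of 54.4 and 24.1 CPM. NR1I3, NR1I2, AHRR and VDR followed at 0.276, 0.217, 0.151 and 0.143 CPM per kb, and each overlapped its neighbor. POR (34.2 ± 1.59) and AHR (11.0 ± 0.437 CPM per kb) kept the first places. The ratio of the highest to the lowest mean, POR over VDR, was 419 in control and 240.0 in MTR4 KD. AHR was thus the most abundant ligand-binding receptor of the 8 in both groups, and PXR, CAR and VDR were all in the low range.

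**Figure D4:**
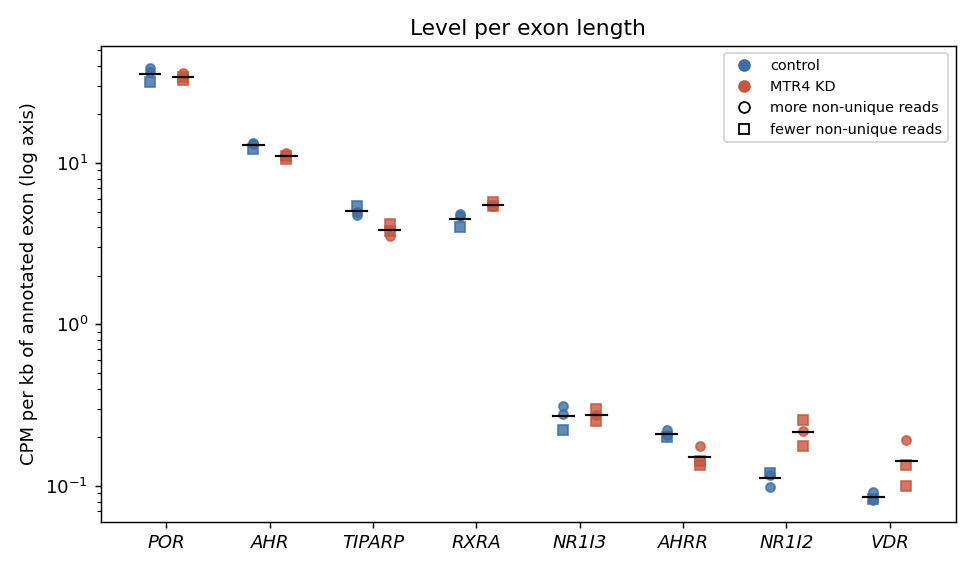
Level per exon length (CPM per kb, log axis) of the 8 genes in each library, with group means as bars (n = 3), ordered by the control mean. POR, AHR, TIPARP and RXRA lie above 3 CPM per kb and NR1I3, AHRR, NR1I2 and VDR below 0.4 CPM per kb; RXRA and TIPARP are separate in MTR4 KD and overlap in control.

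The 9 raised detoxification genes were chosen from earlier results of these same libraries, so their calls and sizes are not independent evidence. They are given for scale only. All 9 were called higher, by log2 fold changes of 1.08 (CYP1A1) to 2.09 (GSTA1) with a median of 1.48. They include the alcohol dehydrogenases ADH1B (1.98), ADH1A (1.47) and ADH1C (1.12) and the bile acid reductase AKR1D1 (1.48). Also among them, the retinol dehydrogenase RDH8 (1.21) lost its call without control 1, control 3 or MTR4 KD 2. Among the receptors, NR1I2 had the nearest log2 fold change at 0.95, from 32 to 92 reads per library, and the more abundant AHR, TIPARP, RXRA and POR lay between −0.39 and 0.29. The part of any receptor in the higher detoxification genes was not tested, and mRNA levels do not measure receptor protein, ligand or activity.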

How the data were processed

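RNA-seq of 3 control and 3 MTR4 KD PLC/PRF5 libraries was analysed from the counts the authors deposited, whole-number read counts per Ensembl gene, 1 file per library. The submitters' processing notes name HISAT2 (2.1.0), HTSeq, DESeq2 and GRCh38; the strand setting of the counting was not given in the sources used here. Of 60675 counted genes, 56959 were in the annotation used (GENCODE lifted to GRCh37, for symbols, exon lengths and overlaps) and 42395 had a symbol; positions are RefSeq's on GRCh38. Rows for unassigned reads stayed out of library sizes, and the share aligned to more than 1 place defined the alignment class (above or below 30%).

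Tests were edgeR quasi-likelihood (4.0.16, R 4.3.3; filterByExpr with minimum count 10, TMM, condition only, Benjamini-Hochberg over 18075 genes), with limma-voom (3.58.1) and DESeq2 (1.42.0) as alternatives beside other scalings, filters, a replicate block, the alignment class and leaving out each library. The script was tested on simulated data without alignment classes and with changes only in well-read genes. That test does not cover the class effect or genes with few reads. The members and lists were chosen with earlier results of these data known. All 8 receptors and partners are named, and list genes where called or of textbook role; the rule for genes of like pattern applied to receptors called on condition alone and so named none. RefSeq promoter windows were searched on both strands. Counts limit precision for genes with few reads.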

Additional observations from a re-analysis of the deposited data

How the results depend on the processing

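The number of the 8 receptor and partner genes called depended on the test: 0 on condition alone, 2 with DESeq2 and 4 with the alignment class, in edgeR and in DESeq2 alike. Leaving out each library gave 0 on condition alone and 2 to 4 with the class. DESeq2 with the class, and libraries left out with the class, were chosen after seeing the data. NR1I2 passed with DESeq2 (0.95), with the class (0.93) and with both (0.93); AHR with the class (−0.19) and with both (−0.18); TIPARP with DESeq2 (−0.39), the class (−0.44) and both (−0.44); RXRA with the class (0.32) and both (0.33). With libraries left out in either fit, the log2 fold changes spanned 0.80 to 1.08 for NR1I2, −0.26 to −0.16 for AHR, −0.48 to −0.33 for TIPARP and 0.18 to 0.48 for RXRA. Those of AHRR (−0.60 to −0.28) and VDR (0.46 to 1.15) kept their sign. NR1I3 (−0.12 to 0.33) and POR (−0.15 to 0.089) changed sign, and POR also with the class in edgeR (0.0013) and DESeq2 (0.0032). CYP27B1 went to 0.074 with the class and, with a library left out, spanned −0.33 to 0.053. HNF4A spanned −0.019 (without MTR4 KD 2) to 0.082, and LRP2 −0.53 to 0.093 (without control 2). The cause was not tested.

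With the class, calls went to 2 of 6 tested genes in the AHR complex and 3 of 11 among PXR and CAR partners. They went to 4 of 9 among vitamin D genes and 3 of 11 among POR partners, against 20.2% of all genes. On condition alone, POR partners gave 2 calls with DESeq2 and 0 to 2 with libraries left out. Over all genes the count was 650, against 1363 with DESeq2, 3649 with the class and 137 to 803 without 1 library; it was 164 without control 1, 183 without control 3, 163 without MTR4 KD 1 and 137 without MTR4 KD 2. Same-numbered pairs of libraries correlated at −0.240 to 0.352, and 3 of 6 libraries correlated best with their own number. Control and MTR4 KD libraries of 1 alignment class correlated at 0.325 to 0.360, and those of different classes at −0.488 to −0.227. Control 1 and MTR4 KD 1 are of different classes. The correlations therefore cannot show whether the replicate numbers pair the libraries. With the replicate block 857 genes were called, among them 1 of the 8, TIPARP (−0.39). Other scalings moved the median of all genes by less than 0.1. NR1I2, NR1I3 and VDR had under 100 reads per library, which limits what could be detected.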
